A study of Homo sapiens with 30 samples.

Results

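The expression of 6 repair genes was followed in human H1299 lung carcinoma cells that made wild type, mutant or lesion-templated p53. The genes were *MGMT*, *ALKBH2*, *ALKBH3*, *MPG*, *MSH6* and *PMS2*, which were chosen by name as the repair context of O6-methylguanine (O6-meG) and of O6-benzylguanine (O6-bzG), the compound given to some of the cultures. All 6 were found among the 39359 genes of the count table, and all 6 were among the 20875 genes that had enough reads to be tested. They were set beside a list of 52 genes of direct reversal, base excision repair, mismatch repair and the nucleotide pool, to which they belong. Both the 6 genes and the list were chosen with earlier results of these data known.

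O6-meG is a small alkyl lesion that pairs with thymine, or with uridine during transcription. The product of *MGMT*, O6-alkylguanine-DNA alkyltransferase (AGT), moves the alkyl group from the base to itself in a single step and is used up by doing so, and O6-bzG is a substrate that uses up the protein in the same way. ALKBH2 and ALKBH3 are dioxygenases that oxidise methyl groups off the ring nitrogens of adenine and cytosine, and the MPG glycosylase cuts out methylated purines at the start of base excision repair. When O6-meG is copied, MSH6 with its partner recognises the mispair, and PMS2 is the subunit that nicks the strand to be removed.

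H1299 is an established line without p53 of its own. Cells of this line received a vector with GFP alone (pGFP), or a vector in which GFP and a p53 insert stood under separate tetracycline-responsive promoters. The insert was wild type p53, the RW mutant p53 (tryptophan in place of an arginine of the DNA-binding domain), or wild type p53 with a single O6-meG in the template strand of that codon (p53 O6-meG). In the group called p53 TM, for transcriptional mutagenesis, the O6-meG vector was given to cells treated with 10 µM O6-bzG from before transfection. The paper gives DMSO as the solvent of O6-bzG and does not state whether the other groups received DMSO. GFP-positive cells were sorted at 6 h or 24 h and total RNA without ribosomal RNA was sequenced, with 3 libraries for each of the 10 groups. No group had O6-bzG without the lesion, so an effect of the compound on a gene and an effect of the misread p53 transcript cannot be told apart where p53 TM differs from the other groups.

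The libraries held 32302699 to 71950532 reads assigned to genes, with a median of 44424643. Levels are given as CPM, a gene's reads relative to its library's total after TMM scaling, and changes as log2 fold changes ± SE from edgeR's quasi-likelihood test over all 30 libraries, called at a Benjamini-Hochberg adjusted P under 0.05. The epithelial keratins *KRT8* (119 to 169 CPM) and *KRT18* (292 to 674 CPM) were present in every library, while the leukocyte gene *PTPRC* and the alveolar gene *SFTPC* had a median of 0 CPM. The mesenchymal gene *VIM* was higher than both keratins in every library, at 2255 to 3382 CPM.

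For replicate 2 of p53 O6-meG and replicate 2 of p53 TM at 6 h, a pair of labels contradicted each other, and both libraries were placed by the genotype field. The names of their columns in the count table, which open the sample titles, put each library in the other group. The p53 target *CDKN1A* also went against the placement used, with 268, 50 and 261 CPM in p53 O6-meG replicates 1 to 3 and 65.7, 249 and 57.7 CPM in p53 TM, where wild type p53 gave 242 to 262 CPM. The 6 h results of these groups are therefore those of the libraries labelled so, every one of them rests on this placement, and they are also given with the pair exchanged or left out. All 30 libraries share a common estimate of the spread, so the placement also bears on the other shares and adjusted P values. With the pair exchanged, p53 TM at 24 h had 11.4% of all genes called in place of 6.5% against p53 O6-meG. Against wild type p53 it had 22.4% in place of 18.5%, and against pGFP 11.5% in place of 9.2%. For wild type p53 against pGFP at 6 h the share was 10.9% in place of 8.75%. At 24 h libraries with the same replicate number deviated together in 30 of 30 pairs, so fits with the replicate number as a block are given wherever they changed a call.

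At 6 h none of the 6 genes passed the threshold in any of the 7 comparisons within that time, by edgeR or by DESeq2 over all 30 libraries, and none had an unadjusted P under 0.05. With wild type p53 against pGFP, 0 of 6 were called where 8.75% of all genes tested were. With only the groups compared in the fit, *ALKBH2* and *MSH6* were called in that comparison, where 19.4% of all genes were. With the placement used, the other 6 h comparisons held few calls of any kind, with 0.00479% of genes for RW mutant p53, 0.35% for p53 O6-meG and 0.0814% for p53 TM against pGFP. Between the p53 groups the shares were 0.0766% for p53 TM against wild type p53, 0.00479% for p53 O6-meG against wild type p53 and 0% for p53 TM against p53 O6-meG. With the pair of libraries of conflicting labels exchanged, the shares of all genes were far higher, at 7.35% for p53 O6-meG against pGFP, 14.6% for p53 TM against wild type p53 and 8.3% for p53 TM against p53 O6-meG. With the pair left out they were 4.85%, 10.9% and 4.1%. The count of members was 0 in all 7 comparisons in both cases. With the replicate number as a block, *MSH6* was called in p53 O6-meG against wild type p53 (0.23 ± 0.08, adjusted P = 0.045), where 2.99% of all genes were. Pairing by number at 6 h was examined without the p53 O6-meG and p53 TM libraries. In the remaining groups the deviations of same-numbered libraries correlated at -0.00378 to 0.229, with 5 of 9 pairs over 0.1. The median for pairs of different numbers was -0.0531. In these groups pairing was thus weaker than at 24 h and not seen in every pair. Whether the p53 O6-meG libraries behind the block call of *MSH6* were paired by number was not tested.

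At 24 h wild type p53 went with higher *ALKBH3*, *PMS2* and *MGMT* and lower *MSH6*, while *ALKBH2* and *MPG* did not pass the threshold. Thus 4 of 6 genes were called, against 34.9% of all genes tested, 20.3% of them higher and 14.6% lower. The changes were small, since none reached 2-fold, a size that 11.1% of all genes passed in this comparison. The RW mutant p53 called 0 of 6 genes, at a background of 0.00479%, with 0 at an unadjusted P under 0.05 and 0 by DESeq2. With p53 O6-meG in cells with active AGT, 3 of 6 were called (background 29.3%, 17.9% higher and 11.3% lower). With p53 TM only *ALKBH3* was called (background 9.2%, 7.71% higher and 1.49% lower).

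*MGMT* (ENSG00000170430.9, chr10:129467190-129770983 on the plus strand of hg38), the gene of the AGT protein itself, was the least expressed of the 6 per kilobase of its canonical transcript. Its median was 14 CPM, or 2.99 CPM per kb. Over the 30 libraries its level went from 11.2 to 20.4 CPM, on 484 to 956 reads per library. The 250 bases before its start site held 36 CpG dinucleotides, where the median over 35116 such windows was 11.

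The window of *MGMT* (RefSeq, GRCh38.p14, chr10:129466991-129467240, plus strand) is printed with each GC box, GGGCGG on either strand, in capitals, because it shows how densely they are packed.
MGMT: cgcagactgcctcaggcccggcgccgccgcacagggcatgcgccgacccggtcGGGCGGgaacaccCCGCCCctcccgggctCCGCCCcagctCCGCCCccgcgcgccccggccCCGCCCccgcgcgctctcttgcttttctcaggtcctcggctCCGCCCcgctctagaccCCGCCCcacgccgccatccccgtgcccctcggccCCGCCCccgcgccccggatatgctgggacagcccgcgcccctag
The window held 8 GC boxes, no CCAAT box and no match to a p53 half-site.

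At 24 h *MGMT* was at 12.9, 13.7 and 13.9 CPM with pGFP and at 16, 19.4 and 15.5 CPM with wild type p53. All 3 wild type libraries were above all 3 pGFP libraries, and the log2 fold change was 0.33 ± 0.12 (1.26-fold, adjusted P = 0.03). With p53 O6-meG the libraries gave 17, 20.4 and 15 CPM, a rise of 0.37 ± 0.12 (adjusted P = 0.017). Replicate 2 was the highest library in both groups, and without it the adjusted P became 0.197 for wild type p53 and 0.158 for p53 O6-meG. Without pGFP replicate 1 it became 0.101 and 0.067, and for wild type p53 it was 0.057 without its replicate 1 and 0.061 without pGFP replicate 2. Both calls were also lost without the low-count filter (adjusted P = 0.215 and 0.124) and with only the groups compared in the fit (0.071 and 0.072).

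With p53 TM, the group in which O6-bzG had been given against the AGT protein, *MGMT* RNA lay at 14.7, 15.4 and 14.4 CPM. These values stood between the pGFP and the wild type libraries with no overlap on either side. With DESeq2 size factors in place of TMM, the lowest p53 TM library (14.38 CPM) lay below the highest pGFP library (14.41 CPM). Neither difference passed the threshold, at 0.14 ± 0.12 against pGFP (adjusted P = 0.596) and -0.19 ± 0.12 against wild type p53 (adjusted P = 0.273). Against p53 O6-meG, which had the same vector without the compound, the change was -0.24 ± 0.12 (adjusted P = 0.236). With RW mutant p53 *MGMT* gave 11.9, 14.4 and 13.3 CPM, overlapping pGFP.

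*ALKBH3* (ENSG00000166199.12, chr11:43880811-43920274, plus strand), which repairs methylated single-stranded DNA and RNA, changed most among the 6 genes with wild type p53. Its libraries gave 20, 23.3 and 23.1 CPM with pGFP and 42.5, 37.6 and 32.1 CPM with wild type p53 at 24 h. The groups lay well apart, and the change was 0.76 ± 0.10 (1.69-fold, adjusted P = 8.7e-07). With p53 O6-meG it was at 36.8, 37 and 35.7 CPM, a rise of 0.72 ± 0.10 (adjusted P = 2.5e-06). The RW mutant p53 left it at 23.4, 26.4 and 23.8 CPM (0.15 ± 0.10, adjusted P = 1).

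With p53 TM *ALKBH3* was at 29.5, 27.8 and 27.3 CPM, above every pGFP library and below every wild type and O6-meG library. The rise over pGFP was 0.35 ± 0.10 (1.27-fold, adjusted P = 0.02), or 39.8% of the rise of the wild type mean, where p53 O6-meG kept 94.3%. By replicate number the share kept with p53 TM was 42.4%, 31.3% and 46.9%. *ALKBH3* was lower with p53 TM than with wild type p53 by -0.41 ± 0.10 (adjusted P = 0.0039) and than with p53 O6-meG by -0.37 ± 0.10 (adjusted P = 0.02). The call of p53 TM against pGFP was lost without pGFP replicate 1 (adjusted P = 0.117) or p53 TM replicate 1 (0.098), and that against wild type p53 without wild type replicate 1 (0.051). That against p53 O6-meG was lost without p53 O6-meG replicate 1 (adjusted P = 0.056) or 2 (0.069) and without p53 TM replicate 2 (0.083) or 3 (0.092), with changes between -0.41 and -0.35.

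*PMS2* (ENSG00000122512.14, chr7:5970925-6009130, minus strand) moved like *ALKBH3* at 24 h, at a lower amplitude. It was at 19.3, 21.2 and 20.2 CPM with pGFP and at 33.5, 27.9 and 25.7 CPM with wild type p53, with no overlap (0.52 ± 0.08, 1.43-fold, adjusted P = 2.4e-05). With p53 O6-meG it was at 27.5, 29.1 and 28.6 CPM (0.49 ± 0.08, adjusted P = 7e-05). The RW mutant p53 gave 18.8, 21.6 and 21 CPM, overlapping pGFP.

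With p53 TM *PMS2* stood at 21.9, 24.9 and 23.2 CPM, all 3 above the pGFP libraries, yet 0.21 ± 0.08 over pGFP did not pass the threshold (adjusted P = 0.146). With DESeq2 size factors in place of TMM the groups overlapped, with p53 TM from 21.4 CPM and pGFP up to 21.8 CPM. *PMS2* was called lower with p53 TM than with wild type p53 (-0.31 ± 0.08, adjusted P = 0.01) and than with p53 O6-meG (-0.28 ± 0.08, adjusted P = 0.044). The difference from wild type p53 rested on wild type replicate 1, without which it was -0.18 (adjusted P = 0.162). The difference from p53 O6-meG missed the threshold whichever of the 6 libraries was left out, with adjusted P from 0.067 to 0.136, although p53 TM was lower in all 3 same-numbered pairs. The fits with a library left out had no replicate block.

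The windows before the start sites of *ALKBH3* and *PMS2* are shown because these genes rose together (RefSeq, GRCh38.p14, chr11:43880581-43880830, plus strand, and chr7:6009050-6009299, minus strand). Capitals mark CCAAT boxes and GC boxes, read on either strand.
ALKBH3: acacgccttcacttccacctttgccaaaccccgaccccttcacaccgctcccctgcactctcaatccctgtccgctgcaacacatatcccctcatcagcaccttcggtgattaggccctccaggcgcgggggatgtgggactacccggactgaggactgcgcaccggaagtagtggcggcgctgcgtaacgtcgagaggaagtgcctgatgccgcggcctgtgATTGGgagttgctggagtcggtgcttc
PMS2: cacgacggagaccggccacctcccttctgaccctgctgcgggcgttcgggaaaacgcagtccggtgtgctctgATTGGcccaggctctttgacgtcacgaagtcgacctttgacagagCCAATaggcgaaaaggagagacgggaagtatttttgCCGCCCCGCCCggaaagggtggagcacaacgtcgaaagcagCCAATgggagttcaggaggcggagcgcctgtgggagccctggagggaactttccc
*ALKBH3* had 1 CCAAT box and no GC box, and *PMS2* had 3 CCAAT boxes and 2 GC boxes that overlap by a base. Neither window matched a p53 half-site, which 5.57% of all 35116 windows did, while 32% held a CCAAT box and 42.6% a GC box.

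**Figure D1:**
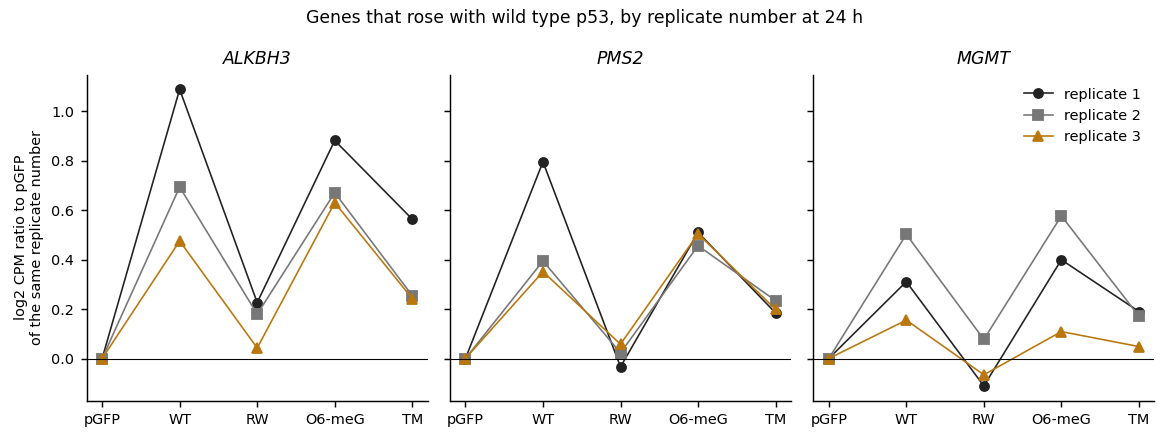
Log2 ratio of CPM to the pGFP library of the same replicate number at 24 h, for *ALKBH3*, *PMS2* and *MGMT*; each line joins the 5 libraries of 1 replicate number. Wild type p53 and p53 O6-meG lie above 0 in 3 of 3 replicates for each gene, and p53 TM lies between pGFP and both of them in 3 of 3 replicates.

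*PMS2* has 8 related copies in the count table, 7 of them tested, which can share reads with it, and how reads that map to several places were treated is not given in the sources used here. With wild type p53 at 24 h, *PMS2CL* rose by 0.45 ± 0.14 (adjusted P = 0.014) and *PMS2P3* by 1.45 ± 0.29 (adjusted P = 2.6e-04), and the other 5 lay between 0.03 and 0.25 and were not called. *PMS2P3* was also called at 6 h, at 1.37 ± 0.29 (adjusted P = 0.0023), when *PMS2* itself stood at 0.14 ± 0.08 (adjusted P = 0.431). Over all libraries *PMS2* had 35074 reads and *PMS2P3* 16026. What part shared reads had in the values of *PMS2* was not tested.

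*MSH6* (ENSG00000116062.14, chr2:47695530-47810063, plus strand, a span that takes in a readthrough transcript) had the highest level per kb of canonical transcript, with a median of 237 CPM or 55.5 CPM per kb. Per kb of all annotated exons *MPG* was higher, at 20.1 against 13.4 CPM per kb. At 24 h it was at 164, 193 and 184 CPM with pGFP and at 114, 152 and 146 CPM with wild type p53. No library of one group reached the other, and the change was -0.40 ± 0.12 (1.32-fold lower, adjusted P = 0.014). With p53 O6-meG it was at 119, 158 and 170 CPM (-0.27 ± 0.12, adjusted P = 0.104), and with p53 TM at 123, 171 and 164 CPM (-0.24 ± 0.12, adjusted P = 0.282).

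In all 5 groups of 24 h replicate 1 was the lowest library. With the replicate number as a block, which takes up that shared shift, *MSH6* was called lower in all 3 of these comparisons, by -0.41 ± 0.06 with wild type p53 (adjusted P = 9.1e-06), by -0.29 ± 0.06 with p53 O6-meG (5.8e-04) and by -0.25 ± 0.06 with p53 TM (0.005). The wild type call without the block was lost without wild type replicate 1 (adjusted P = 0.077) or pGFP replicate 2 (0.067), and p53 O6-meG was called without its replicate 3 (0.043). The RW mutant p53 gave 165, 222 and 184 CPM, overlapping pGFP. No difference of *MSH6* between p53 TM and wild type p53 was called, with 0.15 ± 0.12 (adjusted P = 0.437).

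The window of *MSH6* (RefSeq, GRCh38.p14, chr2:47782895-47783144, plus strand) is shown for comparison with those of the genes that rose, with the same marking.
MSH6: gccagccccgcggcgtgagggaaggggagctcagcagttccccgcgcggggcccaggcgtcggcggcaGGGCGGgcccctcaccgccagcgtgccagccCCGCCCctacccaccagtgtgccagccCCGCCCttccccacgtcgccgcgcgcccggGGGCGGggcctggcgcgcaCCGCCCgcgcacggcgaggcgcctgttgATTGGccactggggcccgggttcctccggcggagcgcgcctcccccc
It held 5 GC boxes and 1 CCAAT box. The windows searched were 1 per gene, at the canonical start site, and the other RefSeq windows of *MSH6* (4 in all) and *PMS2* (2 in all) were not searched. None of these 6 windows matched a CHR element (TTTGAA, in 13.3% of all windows) or an E2F site (TTTCGCGC, in 0.439%) on either strand, and 0 of 6 matched a p53 half-site.

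*FBXO11*, on the opposite strand, shares 4022 bases of exon with *MSH6*, 22.7% of the exons of *MSH6*. The library kit keeps the strand, but whether counting used it is not given in the sources used here. *FBXO11* was also lower with wild type p53 at 24 h (-0.33 ± 0.09, adjusted P = 0.0052), on 69881 reads in all against 308656 for *MSH6*. From 6 h to 24 h with pGFP, in contrast, *FBXO11* rose by 0.26 ± 0.09 (adjusted P = 0.023) while *MSH6* fell.

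*ALKBH2* (ENSG00000189046.10, chr12:109088188-109093631, minus strand), the counterpart of ALKBH3 that acts on double-stranded DNA, did not follow wild type p53 at 24 h. At 24 h it was at 11, 12.5 and 15.4 CPM with pGFP and at 10.7, 13.6 and 13.5 CPM with wild type p53, which overlap (-0.04 ± 0.16, adjusted P = 0.872). With p53 TM it was at 7.58, 10.4 and 11.7 CPM, the lowest mean of the 10 groups. Without a block the change from pGFP was -0.39 ± 0.16 (adjusted P = 0.158).

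In every same-numbered pair *ALKBH2* was lower with p53 TM than with pGFP, wild type p53 and p53 O6-meG. With the replicate number as a block these differences were called, at -0.40 ± 0.09 against pGFP (adjusted P = 0.0043), -0.36 ± 0.09 against wild type p53 (0.0052) and -0.32 ± 0.09 against p53 O6-meG (0.022). Wild type p53 and p53 O6-meG were not called against pGFP in that fit either, with adjusted P = 0.769 and 0.536. Among the 6 genes at 24 h this was the one whose call in p53 TM, under the block, had no counterpart with wild type p53. The O6-bzG given to p53 TM alone cannot be told apart from an effect of the misread p53 transcript. At 6 h every wild type library of *ALKBH2* was below every pGFP library (-0.21 ± 0.16, adjusted P = 0.582). That difference was called only with the groups compared alone in the fit (adjusted P = 0.031).

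*MPG* (ENSG00000103152.11, chr16:77007-85851, plus strand) was the steadiest of the 6, at 23.6 to 33.8 CPM over all libraries. Its highest group mean was 1.15 times the lowest. At 24 h it was at 25.1, 28 and 31.4 CPM with pGFP and at 26.9, 32 and 33.8 CPM with wild type p53 (0.14 ± 0.12, adjusted P = 0.438). With p53 TM the libraries gave 23.6, 29.7 and 30.2 CPM. It shares 451 bases of exon, 30.1% of its exons, with *NPRL3* on the opposite strand, which was not called either (0.09 ± 0.09, adjusted P = 0.471).

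**Figure D2:**
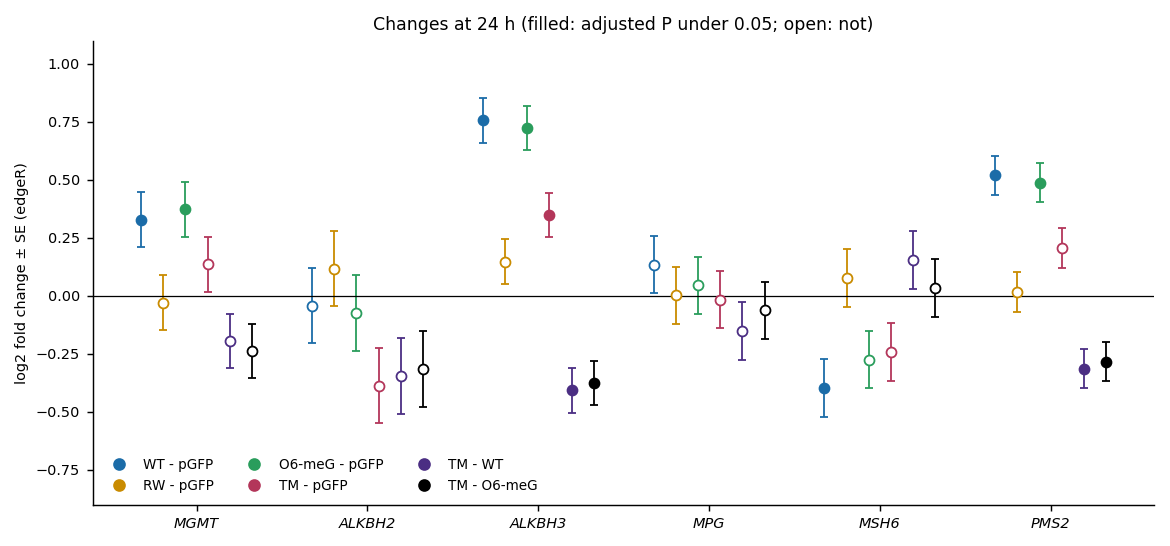
Log2 fold changes with SE bars for the 6 genes in 6 comparisons at 24 h, without a replicate block; filled points have an adjusted P under 0.05. *ALKBH3* and *PMS2* are filled for wild type p53 and p53 O6-meG above 0 and for p53 TM below both of those groups, and *MPG* and *ALKBH2* have no filled point.

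Set directly against wild type p53, p53 TM differed in 2 of 6 genes at 24 h, both lower (background 18.5%, 8.46% higher and 10% lower). Against p53 O6-meG it differed in the same 2 genes, *ALKBH3* and *PMS2* (background 6.5%, 2.51% higher and 3.98% lower). With the block *ALKBH2* joined them, to 3 of 6 in both comparisons, where the share of all genes called also rose, to 32.6% against wild type p53 and 18.4% against p53 O6-meG. In that fit p53 TM against pGFP had 3 of 6 in place of 1, and 17.9% of all genes. Between p53 O6-meG and wild type p53 no member was called and the background was 0%, with 0 of 6 members at an unadjusted P under 0.05 and 0 by DESeq2. The differences of the 6 genes in that comparison ran from -0.09 ± 0.12 for *MPG* to 0.12 ± 0.12 for *MSH6*.

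Some of the same genes differed between 6 h and 24 h whichever vector was present. *MSH6* fell between 6 h and 24 h with all 5 vectors, from -0.65 ± 0.12 with RW mutant p53 (adjusted P = 1.7e-04) to -1.05 ± 0.13 with p53 O6-meG (2.4e-07). *ALKBH2* fell with all 5 as well, from -0.60 ± 0.16 with wild type p53 (adjusted P = 0.0035) to -0.97 ± 0.16 with p53 TM (2.65e-05). For both genes every 24 h library was below every 6 h library. Fewer cells of one kind and less RNA per cell cannot be told apart in bulk RNA of this sort.

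*PMS2* fell with pGFP (-0.40 ± 0.08, adjusted P = 4.8e-04) and RW mutant p53 (-0.41 ± 0.08, 4.3e-04). With wild type p53 and p53 O6-meG it was at -0.02 ± 0.08 and -0.01 ± 0.08 and was not called. With p53 TM the fall was -0.21 ± 0.08 (adjusted P = 0.045), and it missed the threshold without the libraries of conflicting labels (0.148) or with the pair exchanged (0.073). It was also lost without p53 TM replicate 1 (adjusted P = 0.173) or 3 (0.089) of 24 h, or replicate 1 (0.062) or 2 (0.155) of 6 h. At 6 h it had been at 29.3, 29 and 29.8 CPM with wild type p53 and at 26.3, 26.5 and 27.3 CPM with pGFP.

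*MGMT* and *ALKBH3* rose with time where p53 was wild type. *MGMT* rose by 0.36 ± 0.12 with wild type p53 (adjusted P = 0.014) and by 0.33 ± 0.12 with p53 O6-meG (0.021, and 0.071 without the libraries of conflicting labels). The p53 O6-meG call was lost without its replicate 2 of 24 h (adjusted P = 0.193) or of 6 h (0.073). The wild type call was lost without wild type replicate 2 at 24 h (adjusted P = 0.12) or replicate 3 at 6 h (0.074). Without the low-count filter both were lost (adjusted P = 0.062 and 0.083). *ALKBH3* rose by 0.40 ± 0.09 (adjusted P = 0.0011) and 0.39 ± 0.10 (0.0013). *MPG* was called with none of the 5 vectors.

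Counting both directions, 3 of 6 genes changed with time with pGFP (background 40.1%), 4 with wild type p53 (45%), 3 with RW mutant p53 (39.3%), 4 with p53 O6-meG (49.1%) and 3 with p53 TM (45.8%). These shares are near or somewhat above those of all genes. *MPG* was called with wild type p53 only under the block (0.15 ± 0.06, adjusted P = 0.049).

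**Figure D3:**
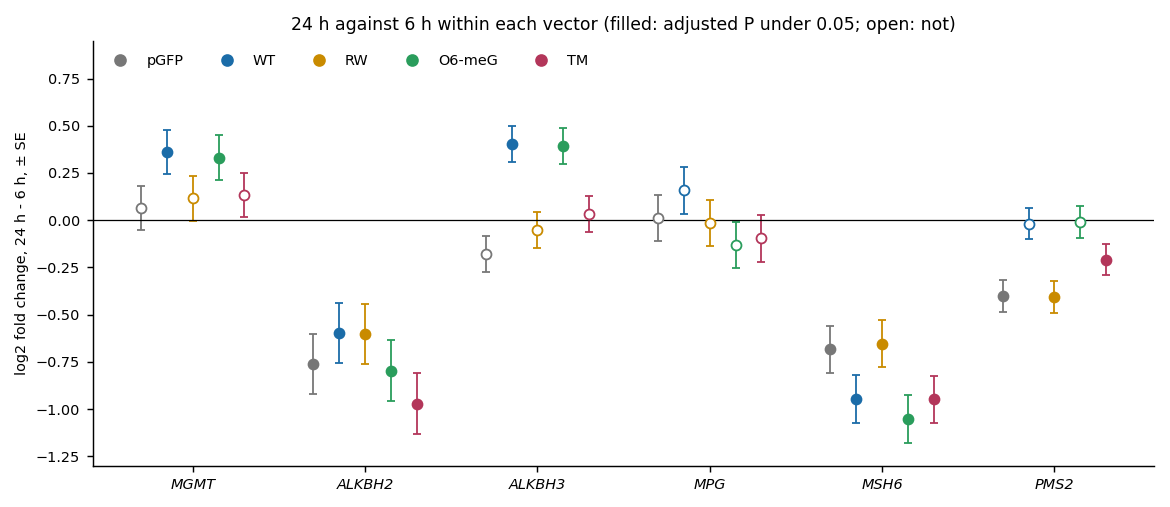
Log2 fold change from 6 h to 24 h with SE bars for each vector; filled points have an adjusted P under 0.05. *MSH6* and *ALKBH2* are filled below 0 with all 5 vectors, *MGMT* and *ALKBH3* are filled above 0 with wild type p53 and p53 O6-meG, and *MPG* has no filled point.

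Whether the effect of wild type p53 itself grew between the times was tested as an interaction. *ALKBH3* was the gene called, at 0.58 ± 0.13 (adjusted P = 0.012), so 1 of 6 passed where 4.9% of all genes did. *PMS2* had 0.38 ± 0.12 (adjusted P = 0.061) and *MSH6* -0.26 ± 0.18 (0.498), and both were called with the block (0.03 and 0.037), which gave 3 of 6 where 13.3% of all genes were called. *PMS2* was also called without wild type replicate 3 of 24 h (adjusted P = 0.019). The interaction of p53 TM against wild type p53 called 0 of 6 (background 0.0671%) and that against p53 O6-meG 0 of 6 (background 0%), each with 1 of 6 at an unadjusted P under 0.05 and 0 by DESeq2. For *ALKBH3* these were -0.37 ± 0.13 (adjusted P = 0.332) and -0.36 ± 0.13 (adjusted P = 0.446). With the placement used, a difference between 6 h and 24 h in what p53 TM did was not shown. Both interactions include the libraries of conflicting labels. With that pair exchanged, 2.46% of all genes were called against wild type p53 and 0.977% against p53 O6-meG. With the pair left out the shares were 1.45% and 0.511%.

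The order of the 10 group means differed between the genes. For *ALKBH3* the 2 highest groups were wild type p53 (37.4 CPM) and p53 O6-meG (36.5 CPM) at 24 h, which overlapped each other and lay above all other groups. For *MSH6* and *ALKBH2* all 5 groups of 24 h were below all 5 of 6 h. For *MPG* every group overlapped its neighbour in the order, and for *MGMT* the 7 lowest groups formed 1 overlapping run from 12.2 to 13.9 CPM, while its 2 highest means were also those of p53 O6-meG (17.5 CPM) and wild type p53 (17 CPM) at 24 h. For *PMS2* the 2 highest means were those of wild type p53 at 6 h (29.4 CPM) and 24 h (29 CPM), next to p53 O6-meG of both times, and its 2 lowest were pGFP (20.2 CPM) and RW mutant p53 (20.5 CPM) at 24 h.

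The genes whose levels ran most like a member's over the 30 libraries were found by Pearson's r of log2 CPM among 14162 genes, as a description over points that share vectors and times. For *ALKBH3* they were *RNF13* (r = 0.96), *ST3GAL4* (0.96) and *YTHDF2* (0.95), and for *PMS2* *METTL8*, *SF3A3* and *PA2G4* (each 0.94). For *MSH6* they were *LRR1*, *KLHL23* and *APEX2* (each 0.99), of which *APEX2*, an AP endonuclease of base excision repair, is on the repair list. For *ALKBH2* they were *TBC1D30*, *AIMP2* and *MRPL36* (each 0.97), for *MGMT* *ELOB* (0.92), *TRIP6* (0.91) and *SNAP47* (0.91), and for *MPG* *PPIAP22*, *CD320* and *SSR2* (each 0.87). The r of *AIMP2* with *ALKBH2* dropped to 0.57 within the 15 libraries of 6 h and was 0.93 within those of 24 h. At 24 h *ALKBH3* and *PMS2* had r = 0.96 with each other and *ALKBH3* and *MSH6* r = -0.63.

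Over the whole repair list, 23 of 52 genes were called with wild type p53 at 24 h, 8 higher and 15 lower, a share of 44.2% where 34.9% of all genes were called. Of all genes tested, 20.3% were higher and 14.6% lower. The median change of the list was -0.08, against 0.01 over all genes. Of the 7 direct reversal genes 3 rose and none fell (42.9% called), namely *MGMT*, *ALKBH3* and *ASCC3*, the helicase that opens DNA for ALKBH3. *ASCC3* went from 174, 208 and 198 CPM with pGFP to 488, 474 and 392 CPM (1.22 ± 0.14, 2.34-fold, adjusted P = 2.2e-07).

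Of the 11 glycosylases 1 rose and 3 fell, a share called of 36.4% that is near the 34.9% of all genes. *TDG*, which removes thymine from mispairs with guanine, rose by 0.73 ± 0.10 (adjusted P = 3.3e-06). *MBD4*, which acts on the same mispair at methylated CpG, fell by 0.66 ± 0.09 on the log2 scale (1.8e-06), from 71.4, 69.5 and 67.7 CPM to 42.7, 43.6 and 46.1 CPM. *NEIL3* fell most, from 23.6, 28 and 24.1 CPM to 11.3, 12.6 and 13.9 CPM (-1.003 ± 0.13, adjusted P = 1.2e-06).

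Of the 9 genes of the later steps of base excision 1 rose and 3 fell (44.4% called, where 34.9% of all genes were). The ligase *LIG1* was at 0.61 ± 0.11 (adjusted P = 1.4e-04) and the flap nuclease *FEN1* at -0.62 ± 0.12 (2.2e-04). Of the 8 mismatch recognition and excision genes 2 rose and 4 fell (75% called). The exonuclease *EXO1* was at -0.56 ± 0.11 (adjusted P = 1.3e-04), beside *PMS2* above and *MSH6* below 0. Of the 13 resynthesis genes 1 rose and 5 fell (46.2% called). The 1 that rose was the sliding clamp *PCNA* (0.78 ± 0.13, adjusted P = 3.6e-05). Among those that fell were the polymerase delta subunit *POLD3* (-0.70 ± 0.08, 2e-07), the clamp loaders *RFC3* (-0.54 ± 0.10) and *RFC5* (-0.38 ± 0.07) and the single-strand binder *RPA2* (-0.45 ± 0.10). None of the 4 nucleotide pool genes was called. *PCNA*, *LIG1* and *TDG* were each the only called gene of their group that rose.

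With p53 TM at 24 h, 7 of 52 were called against pGFP, 5 higher and 2 lower (13.5%, background 9.2%). *ASCC3* was at 523, 434 and 384 CPM (1.21 ± 0.14, adjusted P = 7.2e-06), a change of the size seen with wild type p53, and *LIG1* likewise had 0.68 ± 0.11 (4.6e-04). *PCNA* (0.57 ± 0.13), *TDG* (0.41 ± 0.10), *NEIL3* (-0.50 ± 0.13) and *POLD3* (-0.31 ± 0.08) were called at smaller changes. With the block the count was 21 of 52 (40.4%, where 17.9% of all genes were called).

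Directly against wild type p53, p53 TM differed in 10 of 52, with 6 higher and 4 lower (19.2%, background 18.5%), or 21 of 52 with the block (40.4%, background 32.6%). *MBD4* (0.45 ± 0.09, adjusted P = 8.3e-04), *POLD3* (0.39 ± 0.08), *MLH3* (0.31 ± 0.07), *NEIL3* (0.50 ± 0.13), *RFC5* (0.25 ± 0.07) and *RFC3* (0.35 ± 0.10) were higher. *TDG* (-0.32 ± 0.10) and *NTHL1* (-0.50 ± 0.17, adjusted P = 0.046) were lower beside *ALKBH3* and *PMS2*. Neither *ASCC3* nor *LIG1* was called in this comparison. Against p53 O6-meG 5 of 52 were called, *MBD4* (0.32 ± 0.09) and *POLD3* (0.27 ± 0.08) higher and *TDG* (-0.38 ± 0.10), *ALKBH3* and *PMS2* lower (9.62%, background 6.5%), or 9 of 52 with the block (17.3%, background 18.4%).

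**Figure D4:**
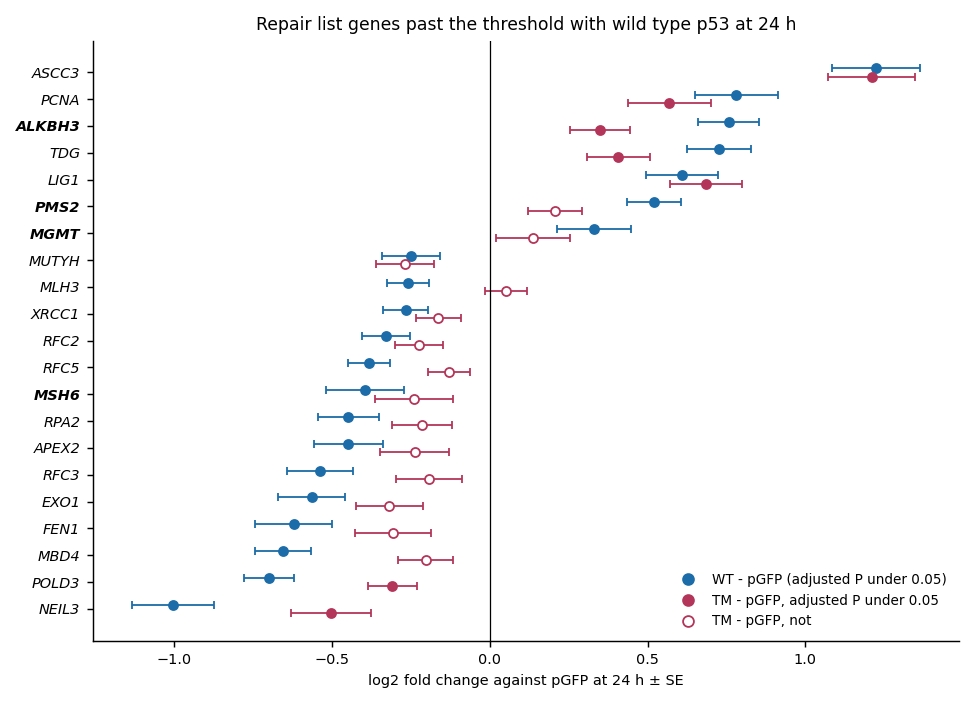
Log2 fold changes against pGFP at 24 h with SE bars for 21 of the 23 list genes called with wild type p53, with the same genes under p53 TM; both sets share the pGFP libraries, and filled red points have an adjusted P under 0.05. For *ASCC3* and *LIG1* the wild type and p53 TM values overlap within their SE, while *ALKBH3*, *TDG*, *MBD4* and *NEIL3* lie nearer 0 with p53 TM. The values of *PCNA*, *MGMT* and *MSH6* also overlap within their SE, though they lie nearer 0 with p53 TM.

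At 6 h with wild type p53, 5 of 52 list genes were called, a share of 9.62% that is close to the 8.75% of all genes, and none was a member. *ASCC3* (0.78 ± 0.14, adjusted P = 8.2e-04), *LIG1* (0.50 ± 0.11) and *PCNA* (0.57 ± 0.13) were higher and *MBD4* (-0.32 ± 0.09) was lower. At 6 h p53 O6-meG had 1 list gene called against pGFP, *PCNA*, and p53 TM had 0, with 7 at an unadjusted P under 0.05 and 0 by DESeq2. With the pair of conflicting libraries exchanged, the p53 O6-meG count became 5 of 52 (9.62%, background 7.35%). In that case p53 TM differed from wild type p53 in 9 of 52 in place of 0 (17.3%, background 14.6%) and from p53 O6-meG in 5 in place of 0 (9.62%, background 8.3%), shares near those of all genes. With the pair left out these 3 counts were 5, 5 and 4, where 4.85%, 10.9% and 4.1% of all genes were called.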

How the data were processed

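The authors sequenced ribosome-depleted, strand-specific total RNA as single reads, aligned it to hg38 with STAR 2.5.3a and counted reads per GENCODE 27 gene with featureCounts of Subread 1.5.2, per the study's methods and the submitters' processing notes. The deposited values used here are these raw counts; a normalized version of the table was not used. All 30 libraries were fitted in edgeR 4.0.16 (R 4.3.3) with TMM scaling, filterByExpr and 1 mean per group, and contrasts were tested with the quasi-likelihood F-test and Benjamini-Hochberg adjustment over 20875 genes. DESeq2 1.42.0, which the authors used at version 1.20, was an alternative, with other filters, scalings, groupings, a replicate block and single libraries left out. Every fit with a single library left out was made without the replicate block. The fits were tested on simulated data. Correlations used log2 CPM with a prior count of 2 and a mean CPM of at least 1. At 24 h deviations from group means of same-numbered libraries correlated at 0.192 to 0.627 (30 pairs), against a median of -0.29 for other pairs, so the numbers, which come from the labels, pair those libraries. Replicates were numbered in the labels, and the paper describes the libraries as biological triplicates. Whether each was a separate transfection is not stated, and where they were not the P values measure technical spread. No 2 replicates agreed within sampling noise (30 pairs, chi-square per degree of freedom 5.51 to 41.9). Gene spans and exon overlaps are those of GENCODE 44 on hg38, matched by gene identifier for 38904 of 39359 genes. Members and lists were chosen with earlier results of these data known. The 6 members were always named, list genes where called in wild type p53 or p53 TM against pGFP or in p53 TM against wild type p53 or p53 O6-meG (at most the 12 smallest P), and the 3 nearest genes by correlation. Some genes are counted but not reported by name here.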

Additional observations from a re-analysis of the deposited data

Results flagged for a closer look

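For 6 of the 52 list genes (11.5%) the change with wild type p53 against pGFP differed between 24 h and 6 h by the interaction test (edgeR, adjusted over all genes). Of all genes tested 4.9% were called, or 13.3% with the block and 7.33% by DESeq2. These were NEIL3 (-0.84 ± 0.18, adjusted P = 0.0074), ALKBH3 (0.58 ± 0.13, 0.012), POLD3 (-0.46 ± 0.11, 0.015), XRCC1 (-0.39 ± 0.10, 0.02), TDG (0.56 ± 0.14, 0.021) and RFC5 (-0.34 ± 0.09, 0.033). NEIL3 stood at -0.16 ± 0.13 at 6 h and -1.003 ± 0.13 at 24 h, and TDG at 0.16 ± 0.10 and 0.73 ± 0.10. XRCC1, the scaffold of single-strand break repair, had 0.13 ± 0.07 at 6 h and -0.27 ± 0.07 at 24 h. The call of ALKBH3 was lost without wild type replicate 1 of 24 h (adjusted P = 0.053).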

How the results depend on the processing

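Counts of calls under other settings are given for the 6 members or the 52 list genes where they moved by over 1.5 times; the cause was not tested. With the replicate block at 24 h, p53 TM against pGFP had 3 members and 21 list genes called, p53 TM against wild type p53 21 list genes, p53 TM against p53 O6-meG 9 list genes, and the change of the wild type effect between times 3 members. At 6 h only 5 of 9 same-numbered pairs correlated over 0.1, and pairing was not examined for p53 O6-meG and p53 TM. At that time the replicate block gave 6 list genes in p53 O6-meG against pGFP (background 3.89%) and 6 in p53 TM against wild type p53 (7.9%). In p53 O6-meG against wild type p53 it gave 7 list genes and 1 member (2.99%). In each of these comparisons more of all genes were called under the block too. It changed no other count by over 1.5 times, and no call of a member beyond those given above.

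With the DESeq2 Wald test the 6 h list counts were 3 in p53 O6-meG against pGFP (background 1.63%), 1 in p53 TM against wild type p53 (2.89%) and 1 in p53 O6-meG against wild type p53 (0.618%). The 24 h list count of p53 TM against pGFP was 12 (background 10.2%), and the wild type time difference had 2 members (7.33%). With DESeq2 size factors p53 TM against pGFP had 0 members at 24 h (background 8.48%). Without a low-count filter, which adds genes to the adjustment, p53 TM at 24 h had 0 members against pGFP (background 3.56%) and 1 against wild type p53 (8.01%). Against p53 O6-meG it had 0 members and 2 list genes (2.41%), and the wild type time difference had 0 members (1.78%). With at least 10 counts in every library p53 TM against pGFP had 11 list genes at 24 h (background 11.4%) and the time difference 2 members (8.08%).

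With the pair of conflicting 6 h libraries exchanged, the 6 h list counts were 5 in p53 O6-meG against pGFP (background 7.35%), 9 in p53 TM against wild type p53 (14.6%) and 5 in p53 TM against p53 O6-meG (8.3%). At 24 h p53 TM against pGFP then had 11 (11.5%). With the pair left out, the 6 h counts were 5, 5 and 4 (background 4.85%, 10.9% and 4.1%). The time difference had 2 members in both cases (background 7.61% exchanged and 6.51% left out). With only the groups compared in the fit, wild type p53 at 6 h had 2 members (ALKBH2 and MSH6) and 12 list genes (23.1%, background 19.4%). In p53 O6-meG against pGFP at 6 h that fit gave 0 list genes (background 0.0111%). For p53 TM at 24 h it gave 0 members against each of pGFP (background 6.34%), wild type p53 (9.31%) and p53 O6-meG (1.29%). The list counts of p53 TM were 4 against wild type p53 and 0 against p53 O6-meG.

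With single libraries left out, members called at 24 h ranged from 2 to 4 in wild type p53 and from 0 to 1 in p53 TM against pGFP, from 0 to 2 in p53 TM against wild type p53, from 0 to 1 in p53 TM against p53 O6-meG, and from 0 to 2 in the time difference. List genes ranged at 24 h from 3 to 9, from 6 to 15 and from 0 to 4 in the same 3 comparisons of p53 TM. At 6 h they ranged from 3 to 4 in wild type p53 and from 0 to 5 in p53 O6-meG against pGFP, from 0 to 5 in p53 TM and from 0 to 1 in p53 O6-meG against wild type p53. The shares of all genes called with single libraries left out are not given here. Of the fold changes of the members under other settings, 1017 kept their side of the threshold, 15 came to pass it and 24 lost it, and none that passed changed direction. With single libraries left out, 867 kept their side, 2 came to pass it and 31 lost it. Those that kept their side include tests that were not called under either fit.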

Other observations

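PMS2P3, a partial copy of PMS2, had 234 to 1315 reads per library. Its change with p53 O6-meG at 24 h was 1.30 ± 0.29 (adjusted P = 0.001) and with p53 TM 0.82 ± 0.29 (adjusted P = 0.078), beside 1.45 with wild type p53. PMS2CL, another copy, rose with p53 O6-meG at 24 h (0.44 ± 0.14, adjusted P = 0.02) and not with RW mutant p53 (0.04 ± 0.14, adjusted P = 1).

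Replicate 1 was the lowest library at 24 h with 5 of 5 vectors for ALKBH2, MPG and MSH6 and with 4 of 5 for PMS2. At 6 h it was the lowest with 0 of 5 for ALKBH2 and MPG and with 3 of 5 for MSH6, while replicate 3 was the lowest with 4 of 5 vectors for MGMT, ALKBH3 and MPG and with 3 of 5 for ALKBH2.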
